A study of Mus musculus with 2 samples.

Results

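Neutrophils of the pressure-overloaded mouse left ventricle were taken as 406 of 12407 cells profiled by droplet single-cell RNA sequencing. They were chosen by transcript: at least 5 UMIs (unique molecular identifiers, which count captured RNA molecules) of S100a8 and S100a9 together, at least 1 UMI of Csf3r, Cxcr2, Retnlg, G0s2 and Hdc together, and under 0.3% of UMIs from the complement genes C1qa, C1qb and C1qc. A barcode counted as 1 of the 12407 cells if it held 500 UMIs or more from 200 genes or more, with mitochondrial genes giving no more than 10% of them. The rule chose 283 of 6992 cells in the control library and 123 of 5415 in the LOY library.

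Both groups were mice that carried transplanted bone marrow and had transverse aortic constriction (TAC), in which the aorta is tied to a narrower bore so that the left ventricle pumps against a higher load. The donor marrow was control in one group and LOY, which lacks the Y chromosome by the study's title, in the other. Right ventricles were removed, left ventricles were digested with enzymes, and living CD45+ RFP+ cells, the leukocytes that came from the graft, were sorted. Each library pooled 3 mice after the sort, with no map from cells to mice, so each group was 1 sample. Differences between the libraries are therefore unreplicated and untested, and every interval (95%) covers counting error only. The strain, the age, the time after surgery and the way in which the Y chromosome was lost are not given in the sources used here.

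Neutrophils are short-lived phagocytes made in the bone marrow. Their granule proteins are made in a fixed order during maturation: primary granule proteases such as elastase in early precursors, secondary granule proteins such as lactoferrin (Ltf), cathelicidin (Camp) and neutrophilic granule protein (Ngp) in later precursors, and gelatinase (Mmp9) last. Mature cells leave the marrow with high Cxcr2, the receptor for the chemokines that draw them into tissue, and in injured heart they are a source of interleukin-1 beta (Il1b) and of the alarmins S100A8 and S100A9.

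The libraries differed in depth. The control library held 42640861 UMIs over 7276 barcodes and the LOY library 18710715 UMIs over 5475 barcodes. Neutrophils held less RNA than the other cells in both, with a median of 2032 UMIs and 875 genes per control cell and 849 UMIs and 435 genes per LOY cell, against 5362 and 3076 UMIs per other cell. Summed over neutrophils, the control profile rests on 722539 UMIs and the LOY profile on 152461 UMIs. Levels are given as CPM, the UMIs of a gene per 1000000 UMIs of the summed cells. In LOY neutrophils 1 UMI was worth 6.56 CPM, and a count of 0 allows up to 19.7 CPM (3 counts). The 2 libraries shared 31 barcodes, of which 1 was a neutrophil in both. Where a pair of values stands without labels, the first is control and the other LOY.

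In the control library 4.05% of cells were neutrophils (3.6% to 4.54%, exact Clopper-Pearson), and in the LOY library 2.27% were (1.89% to 2.70%). The LOY share was lower by more than the counting error, but it lies close to the depth limit of the cell filter: 86 of the 123 LOY neutrophils (69.9%) had under 1000 UMIs, against 2 of 283 control neutrophils (0.707%). With a minimum of 1000 UMIs the shares were 4.05% and 0.737%. The sort for living leukocytes also bears on both shares, and the part of depth in the difference was not tested.

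The rule's limits cut few cells on the S100 side. In each library 4 neutrophils had 5 to 9 UMIs of S100a8 and S100a9, and just outside that limit 5 control cells and 1 LOY cell had 3 or 4 UMIs with the other conditions met. The C1q limit left out 30 control and 24 LOY cells, with a median of 1.60% and 1.45% of UMIs from C1q genes. Inside it, S100a8 and S100a9 held a median of 6.51% of a control neutrophil's UMIs and 9.83% of a LOY neutrophil's.

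Genes that the rule did not use matched the label. Of 12 further neutrophil markers, all 12 were detected in both libraries, and they summed to 11954 and 12416 CPM in neutrophils against 120 and 170 CPM in the other cells. Slpi, a secreted inhibitor of elastase, was the highest at 3125 and 3916 CPM. Mmp9 had 1114 and 1036 CPM against 17.0 and 5.84 CPM in other cells. Ly6g, the surface antigen by which mouse neutrophils are usually sorted, was low here, with 81 UMIs in 31 of 283 control cells and 12 UMIs in 10 of 123 LOY cells. It was nonetheless nearly absent from other cells, at 0.0242 and 0.649 CPM.

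Markers of lymphocytes, granulocytes of other kinds and stromal cells were low or at 0. In LOY neutrophils all 9 T cell markers, all 9 basophil or mast cell markers and all 6 fibroblast markers had no UMI, and in control neutrophils these lists summed to 6.92, 2.77 and 1.38 CPM. Eosinophil markers were seen only as Siglecf and, in the control library, Ccr3, while Epx and Prg2 had no UMI. Eosinophil markers summed to 23.5 and 13.1 CPM, above the 2.32 and 2.81 CPM of the other cells. B cell markers summed to 127 and 335 CPM, against 1842 and 1235 CPM in the other cells. Endothelial markers summed to 27.7 and 45.9 CPM, against 41.9 and 20.6 CPM.

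Macrophage and monocyte markers did not stay near 0. The list of 12 (11 of them detected in each library) summed to 2310 CPM in control and 5870 CPM in LOY neutrophils, against 59716 and 68925 CPM in the other cells. Monocyte markers (10 of 10 detected, with Cd300e, Treml4 and Ace among them) summed to 1412 and 1417 CPM in neutrophils. In the other cells, of which 4806 of 6709 and 4050 of 5292 were C1q-positive (at least 1% of UMIs), they summed to 1718 and 1842 CPM. Plac8 alone gave 763 and 315 CPM in neutrophils, and 3 cells held 49.4% of its control UMIs. At least 2 macrophage-marker UMIs were found in 202 of 283 control and 70 of 123 LOY neutrophils, so low levels were widespread, but most of the UMIs lay in few, deep cells. Macrophage and monocyte markers, 22 genes in all, held at least 0.5% of UMIs in 31 of 283 control neutrophils (10.95%, interval 7.57% to 15.2%). In the LOY library they did so in 30 of 123 neutrophils (24.4%, 17.1% to 33.0%). Those cells carried 22.3% of control and 45.0% of LOY neutrophil UMIs, and 67.1% and 85.6% of the UMIs of the 22 markers. Their median depth was 3357 and 1971 UMIs, against 2013 and 801 UMIs in the remaining neutrophils, and S100a8 and S100a9 held a median of 2.43% and 3.99% of their UMIs, against 6.86% and 11.1%. No doublet caller was run, and whether these barcodes hold 1 cell or more was not tested. Results are therefore given for all neutrophils and for low-marker mature cells, those under 0.5% with no UMI of Camp, Ngp or Ltf: 244 control cells (506505 UMIs) and 91 LOY cells (82169 UMIs). This set was defined after the data were seen, and its first version used the macrophage markers alone. The comparison of immature with mature cells is an exception, as its mature cells include those with macrophage or monocyte markers.

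**Figure D1:**
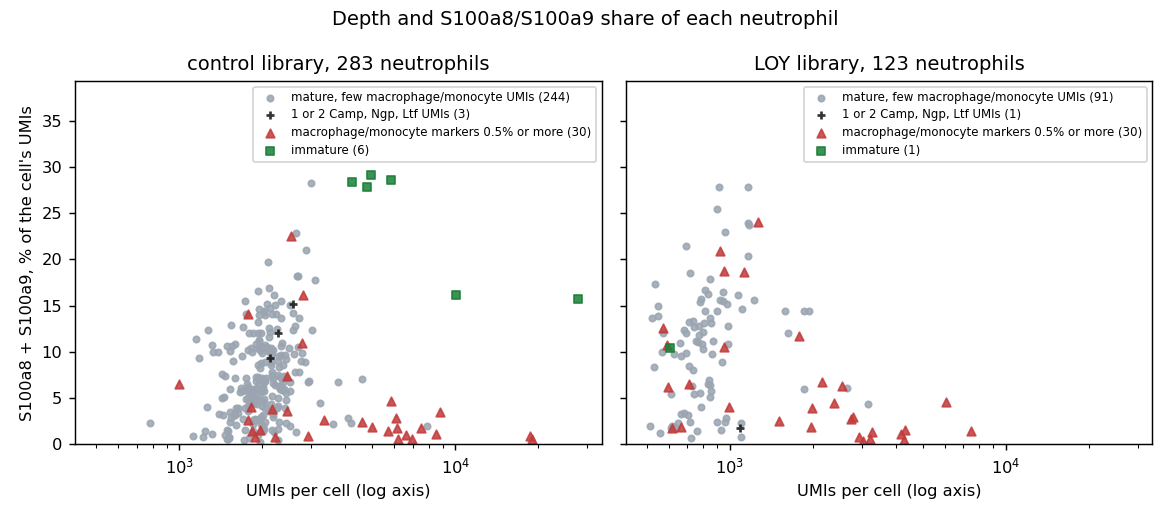
Each point is 1 neutrophil, by its UMIs (horizontal, log axis) and the percent of its UMIs from S100a8 and S100a9 (vertical), in the control library (left) and the LOY library (right); the legend gives the number of cells of each kind, with 1 immature control cell that also carries such markers shown as immature. The 6 immature control cells lie right of most others, and cells with macrophage or monocyte markers (red triangles) make up most of the deep cells low in S100a8 and S100a9.

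Of the 15 most abundant genes of each library, 11 were shared. S100a9 led in both with 51172 and 46497 CPM, and S100a8 had 24902 and 31661 CPM, at rank 3 in control, after Tmsb4x, and rank 2 in LOY; both genes belong to the rule, and they encode the 2 subunits of calprotectin. The genes lie near each other on chromosome 3 (mm10, 90668978 to 90670035 for S100a8 and 90692632 to 90695721 for S100a9). Outside the rule the cytokine gene Il1b stood at 16956 and 11334 CPM, at ranks 5 and 6 of this ranking in the 2 libraries. Srgn, the core protein that packs granule contents, stood at 8685 and 7097 CPM. With every cell thinned to 500 UMIs, Il1b was seen in 97.2% of control and 97.6% of LOY neutrophils, whereas 17.4% and 7.04% of C1q-positive cells and 2.91% and 0.787% of B cells had an Il1b UMI at that depth. Il1b was thus present in nearly all neutrophils of either library, a share far above that in B cells. The source of the Il1b UMIs in B cells was not tested.

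Other inflammatory transcripts were split among the cells. At 500 UMIs per cell, Cxcl2, a chemokine that recruits further neutrophils, was seen in 52.7% (46.7% to 58.6%) and 52.0% (42.8% to 61.1%) of neutrophils. Ptgs2, the inducible enzyme of prostaglandin synthesis, was seen in 45.9% (40.02% to 51.9%) and 19.5% (12.9% to 27.6%). Cd14, a co-receptor for lipopolysaccharide, was seen in 35.3% (29.8% to 41.2%) and 16.3% (10.2% to 23.99%). The intervals of Ptgs2 and Cd14 did not overlap between the libraries, while those of Cxcl2 did. They were the only 2 of 25 genes examined in this way whose intervals lay apart, and both were picked for the text after their values were seen. Without thinning the Ptgs2 shares were 72.4% and 30.9%, and in B cells 0.108% and 0% had a Ptgs2 UMI at 500 UMIs. For Cd14 the share in C1q-positive cells also differed, at 23.9% and 9.46%.

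Of the surface genes described next, Cxcr2 and Csf3r belong to the rule, so their presence follows in part from the choice of cells. Cxcr2 had 1175 and 820 CPM and was seen in 48.4% (42.5% to 54.4%) and 35.0% (26.6% to 44.1%) of cells at 500 UMIs; Csf3r, the receptor for the growth factor that drives neutrophil production, had 1754 and 1246 CPM. Cxcr4, the receptor that holds neutrophils in the marrow and returns with age, was seen in 82 of 283 and 27 of 123 cells at 500 UMIs, against 16.4% and 5.91% of B cells. Siglecf, which marks a tissue-resident type of neutrophil, was seen in 1 of 283 control cells and 0 of 123 LOY cells at that depth, and the exact interval for 0 of 123, which limits cells with a UMI at that depth, reaches 2.95%. Without thinning 3.89% and 1.63% had a Siglecf UMI.

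Immature neutrophils were rare. Cells with at least 3 UMIs of Camp, Ngp and Ltf, making up at least 0.2% of their UMIs, numbered 6 of 283 in the control library (2.12%, interval 0.782% to 4.56%) and 1 of 123 in the LOY library (0.813%, 0.0206% to 4.45%). The intervals overlap, so no difference in the share was detectable at these cell numbers. With cells left out that had 2 or more UMIs of lymphocyte, eosinophil, basophil, mast or dendritic cell markers, or of Ly6c2, F13a1 and Vcan, 1 of 240 control cells (0.417%) remained. Ly6c2, a surface antigen of classical monocytes and of some marrow precursors, had 1, 5, 10, 10, 2 and 27 UMIs in the 6 cells by rising depth, while F13a1 and Vcan had 0. Between this limit and the mature cells, with no UMI of the 3 genes, lay only 3 control and 1 LOY cells, with at most 2 UMIs each. Outside the neutrophils 16 of 6709 control cells and 5 of 5292 LOY cells had any UMI of the 3 genes, and none met the limit. The 6 control cells held 99.9% of all UMIs of Camp, Ngp and Ltf in control neutrophils.

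The 6 control cells were deep, at 4240, 4791, 4936, 5844, 10066 and 27799 UMIs, against a median of 2023 UMIs in mature control cells. Camp alone had 135, 207, 78, 311, 307 and 1842 UMIs in them, in the same order, Ngp had 136, 150, 111, 250, 233 and 388 UMIs, and Ltf had 38, 51, 39, 132, 143 and 31 UMIs. Ltf, lactoferrin, was thus lowest in the deepest cell, where Camp was highest. The single immature LOY cell was shallow, with 608 UMIs, of which 36 were Camp, 13 Ngp and 0 Ltf.

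The deepest control cell stood apart from the other 5 of that library. It alone carried the primary granule transcripts Elane (48 UMIs, neutrophil elastase), Prtn3 (83 UMIs, proteinase 3) and Mpo (5 UMIs, myeloperoxidase), and the dividing-cell genes Mki67 (19 UMIs) and Top2a (9 UMIs). The other 5 immature control cells had 0 UMIs of all 5 genes. Its 21-gene proliferation list had 479 UMIs (1.72% of the cell), against 8 to 27 UMIs in each of the others. It also lacked Mmp8 and Mmp9, collagenase and gelatinase of the later granules, which the other 5 cells carried at 5 to 33 and 4 to 18 UMIs. Retnlg, a resistin-like gene of late maturation, had 91, 30, 236, 118, 0 and 1 UMIs from the shallowest cell to the deepest, so the 2 deepest cells lacked it or nearly so. The immature LOY cell also carried dividing-cell transcripts, with 2 UMIs of Mki67 and 17 UMIs of the proliferation list (2.80% of the cell). Of the primary granule list it had 2 UMIs of Fcnb and 1 of Ms4a3, but 0 UMIs of Elane, Prtn3 and Mpo.

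Against the 274 mature control cells, 385 of 1940 measured genes (19.8%) were over 2-fold higher in the 6 immature cells and 617 (31.8%) over 2-fold lower, on the log2(CPM + 10) scale, with measured meaning at least 100 CPM in either group. Without the deepest cell, which held 48.2% of the immature UMIs, 438 of 2068 (21.2%) were higher and 620 (30.0%) lower. The cells were chosen by Camp, Ngp and Ltf, which are left out of these counts, and genes of the same program are not independent of that choice. Secondary granule genes followed the 3: 16 of the other 17 measured members of that list were over 2-fold higher and none lower, and the count was the same without the deepest cell. Lcn2, a secondary granule protein that binds bacterial iron carriers, had 679 UMIs in the 6 cells (11773 CPM) and 648 UMIs in the mature cells (985 CPM), a ratio of 11.95 (exact conditional interval 10.7 to 13.3). Chil3, a chitinase-like secreted protein, stood at 42.2 times the mature level (28.5 to 64.0), and Cd177, a surface partner of proteinase 3, at 48.7 times (24.9 to 104). Adpgk, a glucose-phosphorylating enzyme, was seen in all 6 immature cells (53 UMIs) and in 5 of 274 mature cells. Hp, haptoglobin, was the exception, with 1925 CPM in immature and 2207 CPM in mature cells.

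Some of the largest ratios rested on the deepest cell. Fcnb, a ficolin of innate defence, had 57 UMIs and Elane 48 UMIs in the immature cells, all in that 1 cell, and 0 UMIs in mature cells, at least 217-fold and 182-fold higher against the limit of 3 counts (4.56 CPM). The exact intervals, which also hold the error of the higher count, start at 171 and 143. Cebpe, the transcription factor of secondary granule genes, had 902 CPM in the 6 cells, 201 CPM without the deepest and 28.9 CPM in mature cells. Of 12 measured proliferation genes 12 were over 2-fold higher in the 6 cells. Without the deepest cell 3 genes of that list were measured, of which 0 were over 2-fold higher and 1 lower. Olfm4, a granule protein found in only some neutrophils, came from 1 other cell, which held all 19 of its UMIs.

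The effector genes of mature cells were low in immature cells. Cxcl2 had 0 UMIs in the 6 cells (limit 52.0 CPM) against 5180 CPM in mature cells, at least 99.6-fold lower. Il1b had 77 UMIs in 3 of the 6 cells, 1335 CPM against 18338 CPM, a ratio of 0.0728 (0.0574 to 0.0911). Isg15, Ccl4 and Rsad2 had 0 UMIs, and by the same limit their summed levels were at least 24.2-fold, 19.7-fold and 15.1-fold lower. The exact intervals of the ratio reach 0.0124 for Cxcl2 and 0.0509, 0.0626 and 0.0820 for the other 3. These limits and intervals count UMIs and leave out the spread between cells. Cxcl2, Isg15, Ccl4 and Rsad2 were seen in 177, 130, 66 and 80 of 274 mature cells. Many mature cells thus lacked them too, and 6 cells are too few to fix the size of the gap. The same holds for other genes at 0 in the lists that follow. Of 11 measured cytokine and chemokine genes 10 were over 2-fold lower and none higher, and of 28 interferon-response genes 25 were lower and none higher; 4 and 14 of these genes had 0 UMIs in immature cells. The list medians of the log2 ratio were -4.25 and -3.79, or -3.77 and -2.14 with the genes at 0 set to the 3-count limit, against -0.23 over all measured genes. Many receptors were lower too, with 7 of 11 measured chemotactic receptors over 2-fold lower and 1 higher, Ltb4r1, which binds leukotriene B4 (2.81, 1.55 to 4.83). Among maturation and surface genes 16 of 23 were lower and 1, Ly6g, was higher (6.75, 4.11 to 10.9). Csf3r stood at 0.111 of the mature level (0.0574 to 0.195) and Cxcr2 at 0.222 (0.126 to 0.363), although both belong to the rule, which asks for 1 UMI of 5 genes. The actin cytoskeleton list differed little, with 2 of 26 genes higher and 3 lower.

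**Figure D2:**
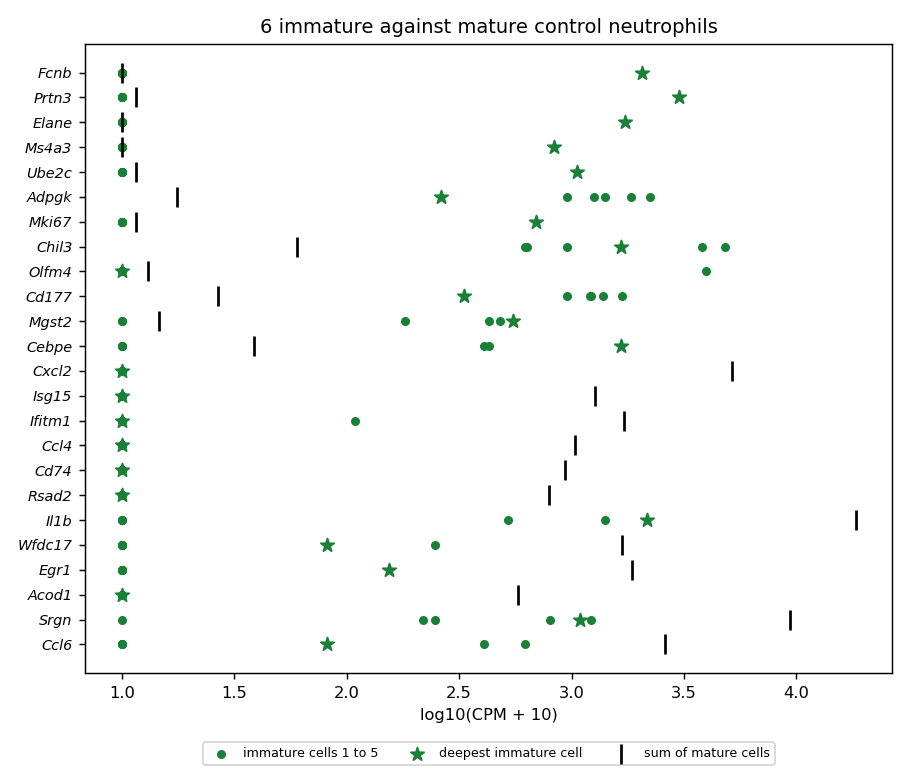
Levels of the 12 genes with the clearest higher and the 12 with the clearest lower level in immature control neutrophils, as log10(CPM + 10), for each of the 6 immature cells (green; the star is the cell of 27799 UMIs) and for the sum of 274 mature cells (black bar). Adpgk, Chil3 and Cd177 lie above the mature level in all 6 cells, while Fcnb, Prtn3, Elane, Ms4a3, Ube2c and Mki67 are carried by the deepest cell alone. Cd74, among the lower genes, is a macrophage marker, and 3 cells held 64.6% of its UMIs in control neutrophils.

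Camp, Ngp and Ltf all lie on chromosome 9, and the DNA before each is shown because these 3 transcripts were high in the same 6 cells and define them. Each stretch is the part of the 250 bases before the RefSeq start site that lies in no exon of GENCODE M21, given 5′ to 3′ on the gene's strand (GRCm38.p6, the build of mm10). Capitals mark matches, on either strand, to TTNNGNAA, a core read by C/EBP factors, or GAGGAA, a core read by ETS factors such as PU.1. The regions are chr9:109849618-109849706 (minus strand) for Camp, chr9:110419558-110419746 (plus) for Ngp and chr9:111019042-111019270 (plus) for Ltf.
Camp: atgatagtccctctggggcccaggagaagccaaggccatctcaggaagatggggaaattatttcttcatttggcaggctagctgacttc
Ngp: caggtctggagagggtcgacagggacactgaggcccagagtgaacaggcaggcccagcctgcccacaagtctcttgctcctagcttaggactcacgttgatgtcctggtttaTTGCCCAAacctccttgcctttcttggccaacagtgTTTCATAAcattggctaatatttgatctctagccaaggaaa
Ltf: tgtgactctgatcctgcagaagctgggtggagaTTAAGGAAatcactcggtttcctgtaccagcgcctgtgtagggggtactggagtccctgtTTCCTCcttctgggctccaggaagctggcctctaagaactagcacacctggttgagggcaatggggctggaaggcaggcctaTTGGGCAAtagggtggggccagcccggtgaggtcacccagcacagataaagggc
TTNNGNAA was found 2 times before Ngp, with 1 more inside its first exon, 2 times before Ltf and 0 times before Camp, and GAGGAA was found 1 time, before Ltf. Among 32851 mouse promoters, 36.8% held TTNNGNAA and 23.3% held GAGGAA in the 250 bases, so a match is common, and the 2 motifs were chosen after the genes were known.

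The LOY label was checked in these cells with the Y-linked genes Ddx3y, Eif2s3y, Kdm5d and Uty. They had 176 UMIs in control neutrophils (244 CPM) and 2 UMIs in LOY neutrophils (13.1 CPM), 5.39% of the control level (0.647% to 19.7%). Ddx3y, an RNA helicase, had 112 UMIs and 0 UMIs. By the limit of 3 counts it was at least 7.88-fold lower in the LOY library, while its exact ratio interval reaches 0.159. Its X-linked partner Ddx3x had 412 and 433 CPM, a ratio of 1.05 (0.791 to 1.37).

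Between the libraries, 93 of 1666 measured genes (5.58%) were over 2-fold higher in LOY neutrophils and 111 (6.66%) lower by over 2-fold. The median over these genes was -0.04 on the log2 scale. With a minimum of 1000 UMIs, which left 37 LOY cells, 300 and 226 of 1826 genes passed. In mature cells alone the shares were 5.82% and 7.36% of 1684 genes. In low-marker mature cells 71 of 1608 (4.42%) were higher and 146 (9.08%) lower, with a median of -0.08. The 2 sets gave different genes on the higher side. Of the 12 genes named there in all neutrophils, by the interval bound nearest 1, only Mif and Ccl9 were named again in low-marker mature cells, whereas 9 of the 12 lower genes were named in both.

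Lower genes in LOY neutrophils included a group of stress-responsive regulators that were lower in other LOY cells too. Cebpb, a C/EBP transcription factor of myeloid inflammation, had 5082 and 1004 CPM, a ratio of 0.197 (0.167 to 0.232), and it was seen in 280 of 283 and 82 of 123 cells. In low-marker mature cells the ratio was 0.220 (0.180 to 0.267). The log2 ratio of Cebpb was -2.33 in neutrophils and -2.47 in all other kept cells, a gap of like size. Nr4a1, an orphan nuclear receptor (-1.70 against -1.88), and Pfn1, profilin, which binds actin (-2.11 against -1.83), were also alike. For Btg2, an antiproliferative early-response gene (-1.79 against -2.65), and Zfp36, which destabilises cytokine mRNA (-1.31 against -2.03), the gap in other cells was the larger. On the whole list of immediate early and dissociation-stress genes, 4 of 31 measured members were over 2-fold lower and none higher, against 6.66% lower among all measured genes, with a median log2 ratio of -0.36 in neutrophils and -1.14 in other cells. The other 27 measured members lay within 2-fold, and some were not lower. In mature cells Jun had 532 and 1015 CPM and Ier3 had 1180 and 1837 CPM. Egr1 had 1847 and 1990 CPM there, and Fos had 5650 and 5214 CPM. Digestion and handling can induce genes of this list, and the part of either in these differences was not tested.

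For 6 further lower genes the log2 ratio was nearer 0 in other cells, where several are so low that the added 10 CPM shrinks it. Trem3, an activating receptor of the TREM family, had 298 UMIs in 164 of 283 control cells and 15 UMIs in 15 of 123 LOY cells, 412 and 98.4 CPM. Its log2 ratio was -1.96 in neutrophils, while other cells had 4.67 and 4.11 CPM, too low for the scale to show a gap. Gsr, glutathione reductase, had 1333 and 348 CPM, a ratio of 0.261 (0.194 to 0.344), and log2 ratios of -1.91 and -0.85. Rgcc, a cell cycle regulator, had 113 and 2 UMIs, a ratio of 0.0839 (0.01 to 0.310), with 13.02 and 2.06 CPM in other cells. Il15, a cytokine for lymphocytes, had 74 and 2 UMIs, a ratio of 0.128 (0.0152 to 0.479). Anxa1, an anti-inflammatory phospholipid-binding protein, had 891 and 256 CPM, and Rbm3, a cold-inducible RNA-binding protein, had 415 and 118 CPM. All 6 genes were also lower in low-marker mature LOY cells. Trem3, Gsr, Anxa1 and Rbm3 had log2 ratios of -1.86, -1.99, -1.45 and -2.21 there, Rgcc had 89 and 1 UMIs and Il15 had 56 and 0 UMIs. Serpinb1a, an inhibitor of neutrophil proteases, did not: 90% of its 110 control UMIs came from 3 cells, and low-marker mature cells had 3 and 0 UMIs. Among the other cells, Ly6c2-positive monocytes (at least 2 UMIs of Ly6c2, C1q under 0.3%) had lower LOY levels of all 6 genes too. There Anxa1 had 313 and 104 CPM, Gsr 241 and 105 CPM, and Rbm3 865 and 402 CPM. Rgcc had 46.5 and 5.89 CPM, Trem3 30.8 and 23.6 CPM, and Il15 22.9 and 14.1 CPM. No test of the difference between neutrophils and other cells was possible.

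G0s2, an inhibitor of fat breakdown and a gene of the rule, was also lower in the LOY library, with 3037 and 1168 CPM, a ratio of 0.384 (0.328 to 0.448). It was seen in 46.3% (40.4% to 52.3%) and 34.1% (25.8% to 43.2%) of cells at 500 UMIs. Among the maturation and surface genes it was the only one of 23 measured over 2-fold apart, while S100a8, S100a9, Retnlg, Hdc, Csf3r and Cxcr2 had ratios of 1.27, 0.909, 1.16, 0.847, 0.711 and 0.698. Cells had to carry such genes to be chosen, so these levels are a description.

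Most genes named as higher in LOY neutrophils lay closer to the control level on the log2(CPM + 10) scale once the marker cells were left out, as the plot of these genes shows. Lgals1, a galectin, had the largest ratio, 17.4 (6.83 to 52.4), from 6 and 22 UMIs, of which 3 and 4 lay in low-marker mature cells. Apoe, a lipid carrier made by macrophages, had 817 and 2860 CPM in all neutrophils and 432 and 730 CPM in low-marker mature cells. Crip1 had 151 and 584 CPM against 41.5 and 97.4 CPM, and the monocyte genes Ms4a6c and Ms4a4c had 433 and 223 CPM in LOY neutrophils but 48.7 and 0 CPM in low-marker mature LOY cells. Tmem176b had 33.2 and 157 CPM in all neutrophils, but 6 and 0 UMIs in low-marker mature cells. Apoe and Ms4a4c are themselves among the markers used to define the low-marker set, so their lower levels there follow in part from that choice. For Ms4a6c the control level was lower there as well, at 119 and 11.8 CPM, so its plain ratio was 3.64 in all neutrophils and 4.11 (0.853 to 17.3, from 6 and 4 UMIs) in low-marker mature cells. Plain ratios of Lgals1, Apoe and Crip1 were 17.4, 3.50 and 3.87 in all neutrophils. In low-marker mature cells they were 8.22 (1.39 to 56.1), 1.69 (1.25 to 2.26) and 2.35 (0.899 to 5.52). Each of these genes was thus lower in low-marker mature cells than in all neutrophils of the same library. Cells that carry macrophage or monocyte markers made up 10.95% and 24.4% of neutrophils, and their part in the ratios was not tested. Ccl9, a chemokine, kept a log2 ratio of 1.86 in low-marker mature cells, from 15 and 11 UMIs, against 2.22 in all neutrophils and 0.27 in other cells.

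**Figure D3:**
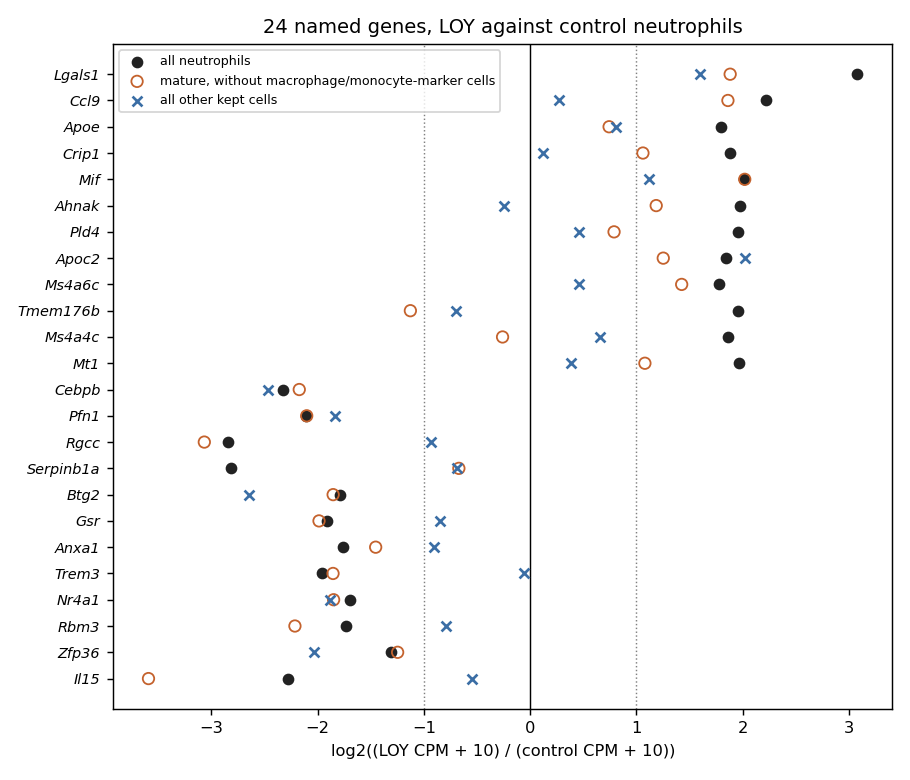
log2((LOY CPM + 10)/(control CPM + 10)) for the 12 higher and 12 lower genes named from all neutrophils, in all neutrophils (filled), in mature neutrophils without macrophage- or monocyte-marker cells (open) and in all other kept cells (crosses); dotted lines mark 2-fold. The open circles lie left of the filled ones for most higher genes, and crosses lie near the neutrophil values for Cebpb, Pfn1 and Nr4a1 but near 0 for Trem3, which had under 10 CPM there.

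Within low-marker mature cells, the genes named as higher in LOY included several whose ratio over all neutrophils was similar. The small antiviral membrane proteins Ifitm1, Ifitm2 and Ifitm3 had 1996 and 4101, 3704 and 7229, and 1392 and 2957 CPM, ratios of 2.05 (1.81 to 2.33), 1.95 (1.78 to 2.14) and 2.12 (1.83 to 2.46), against 2.27, 1.90 and 2.49 over all neutrophils. All 3 were also higher in other LOY cells, with log2 ratios of 0.75, 0.60 and 1.04. Their genes lie side by side on chromosome 7 and resemble each other, so reads may have been split among them. Cd52, a short surface glycoprotein of leukocytes, had 3356 and 6840 CPM, a ratio of 2.04 (1.85 to 2.24), against 2.06 over all neutrophils, and a log2 ratio of 1.21 in other cells. Lcn2 had 1171 and 2592 CPM, a ratio of 2.21 (1.88 to 2.59), while in all neutrophils, with the 6 immature control cells in the sum, its ratio was 0.999 (0.876 to 1.14). Mif, a cytokine that arrests macrophage migration, had 37.5 and 183 CPM from only 19 and 15 UMIs.

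Ccl3, a chemokine for monocytes and neutrophils, was higher in the sums, at 501 and 1363 CPM, but 85.7% of its 112 UMIs in low-marker mature LOY cells came from 3 cells, 1 of which held 74. At 500 UMIs per cell, 34 of 283 control (8.47% to 16.4%) and 8 of 123 LOY (2.85% to 12.4%) neutrophils had a Ccl3 UMI, against 6.12% and 5.98% of C1q-positive cells, so the higher sum did not come with more positive cells. Cxcl10 was as concentrated in the control library: of its 89 UMIs in low-marker mature cells, 79.8% came from 3 cells.

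By function, most groups differed little between the libraries. The lists share some genes, and 5.58% of all measured genes were over 2-fold higher and 6.66% lower. None of 11 measured genes of the NADPH oxidase and peroxidase list, which makes the oxidative burst, was over 2-fold apart, and none of 10 genes of MHC class I presentation was, although the median log2 ratio of the latter was -0.51 in all neutrophils, -0.52 in low-marker mature cells and -0.31 in other cells. Of 26 actin cytoskeleton genes only Pfn1 passed 2-fold; Actb stood at 12348 and 21783 CPM and Tmsb4x, which holds free actin, stood at 28393 and 15532 CPM. Of 9 inflammasome and IL-1 pathway genes 1 was higher (Pycard, 54.0 and 184 CPM, and 17.8 and 48.7 CPM in low-marker mature cells) and none lower. Il1b itself had a ratio of 0.668 by its CPM, within 2-fold.

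Of 13 measured cytokine and chemokine genes Ccl9 and Tgfb1 were over 2-fold higher and Ptgs2 lower. Tgfb1, the growth factor that drives fibroblasts to make matrix, had 95 UMIs (131 CPM) in control and 43 UMIs (282 CPM) in LOY neutrophils, and 94.8 and 183 CPM (48 and 15 UMIs) in low-marker mature cells, a log2 ratio of 0.88, under 2-fold. Ptgs2 had 1384 and 564 CPM, and 1718 and 888 CPM in low-marker mature cells, where it also stayed just under 2-fold. In the survival and death list, Bcl2a1b (292 and 98.4 CPM), which protects from apoptosis, and Fas (116 and 32.8 CPM), a death receptor, were both over 2-fold lower and none of 10 was higher. In the transcription factor list, Cebpb and Cebpd were the 2 of 20 over 2-fold lower. Adam8 (311 and 125 CPM), a sheddase of neutrophil granules, and Cd9 (819 and 315 CPM), a tetraspanin, were lower in both sets of cells.

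Secondary granule genes turned with the cells that were summed. Over all neutrophils 7 of 15 measured members were over 2-fold lower in the LOY library and none higher, with a median log2 ratio of -0.69. Without immature and marker cells, 2 of 9 were higher and 1 lower, with a median of 0.11. The lower levels of Camp (3986 and 236 CPM), Ngp (1760 and 85.3 CPM) and Ltf (601 and 13.1 CPM) in LOY neutrophils rest almost wholly on 6 cells against 1.

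Of 30 measured interferon-response genes 5 were over 2-fold higher and 1 lower, and the list's median was 0.17 on the log2 scale. In other cells the median of the same list was 0.59. Among low-marker mature cells 4 of 24 were higher and 2 lower, with a median of 0.02. Isg15, a ubiquitin-like antiviral protein, had 1153 and 1115 CPM in neutrophils, and Rsad2, viperin, had 714 and 689 CPM. Irf7, a transcription factor of the interferon response, had 187 and 459 CPM, and 146 and 341 CPM in low-marker mature cells.

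These transcripts were concentrated in few neutrophils of either library. With each low-marker mature cell thinned to 500 UMIs and 29 interferon-response genes summed (a subset chosen after the data were seen, without the Ifitm genes and others expressed broadly), the median was 1 UMI per cell in both libraries and the maximum 61 and 44 UMIs. Cells with 10 UMIs or more numbered 18 of 244 (7.38%, 4.43% to 11.4%) and 7 of 91 (7.69%, 3.15% to 15.2%). The 24 control and 9 LOY cells with the highest sums held 57.5% and 57.2% of the UMIs. No difference between the libraries in the share of such cells was detectable at these numbers.

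**Figure D4:**
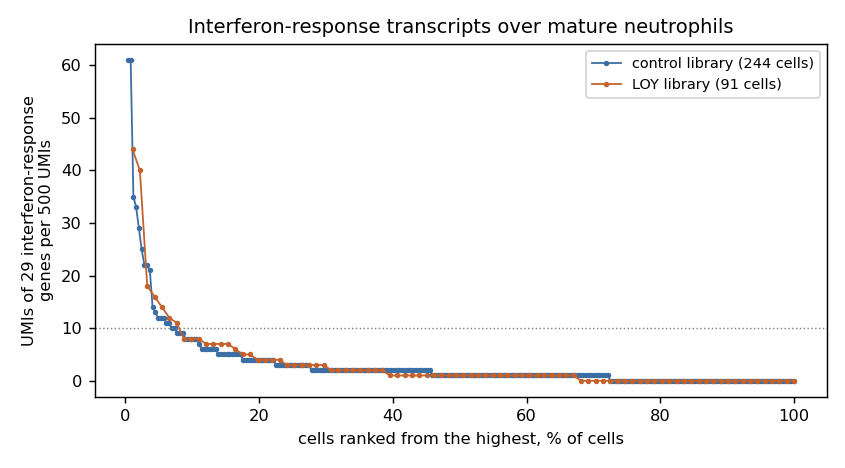
UMIs of 29 interferon-response genes per 500 UMIs (vertical) in each low-marker mature neutrophil, ranked from the highest (horizontal, percent of cells), for 244 control and 91 LOY cells; the dotted line marks 10 UMIs. Both curves fall steeply, from 61 and 44 UMIs to a median of 1 UMI.

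Within each library, mature neutrophils also spread along their content of S100a8 and S100a9. Low-marker mature cells were ranked by the percent of UMIs from these 2 genes, after the data were seen. The 81 lowest of 244 control cells (at most 4.88%) are called S100-low and the 81 highest (at least 9.51%) S100-high, with 30 cells each in the LOY library (at most 6.51% and at least 13.7%). CPM were computed without the 2 genes. Depth was similar, with a median of 1882 UMIs in S100-low and 2082 UMIs in S100-high control cells and of 770 and 915 UMIs in LOY. Macrophage and monocyte markers were alike too, at 1650 and 1749 CPM in control and 2408 and 2054 CPM in LOY. In control 117 of 1810 measured genes (6.46%) were over 2-fold higher in S100-low cells and 81 (4.48%) lower. In LOY, whose 2 sets held only 27410 and 24347 UMIs, 580 of 2088 (27.8%) were higher and 379 (18.2%) lower.

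S100-high cells had more Retnlg, a gene of the neutrophil rule, and more of several secondary granule transcripts. In control, Retnlg had 3508 CPM in S100-low and 11855 CPM in S100-high cells, a ratio of 0.296 (0.268 to 0.326). In LOY it had 3831 and 20536 CPM, a ratio of 0.187 (0.150 to 0.231). Lcn2 behaved likewise, with ratios of 0.316 (0.25 to 0.398) and 0.142 (0.0859 to 0.223). Ly6g had 1 UMI in S100-low and 27 UMIs in S100-high control cells, and 1 and 3 UMIs in LOY. Wfdc21, a small secreted protein of the whey acidic family, had 18 and 102 UMIs in control, and 0 and 19 UMIs in LOY. Of 9 measured secondary granule genes 5 were over 2-fold lower in S100-low control cells and none higher, and in LOY 4 of 9 were lower and 1 higher. Of 10 tertiary granule genes none was over 2-fold apart in control, and of 11 in LOY 2 were higher and 2 lower.

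S100-low cells had more of several inducible genes. Csf1, a macrophage growth factor, had 518 and 115 CPM in S100-low and S100-high control cells, a ratio of 4.52 (2.66 to 8.12), and 657 and 123 CPM in LOY, where only 18 and 3 UMIs were counted. Ier3, an early-response survival gene, had ratios of 2.69 (2.18 to 3.35) and 3.71 (2.45 to 5.77). Ptgs2 had ratios of 1.92 (1.60 to 2.30) and 6.47 (2.92 to 16.9). Ccl3 had ratios of 3.22 (2.21 to 4.81) and 29.3 (9.74 to 145), the latter resting on the few LOY cells named above. Rsad2 had ratios of 3.95 (2.73 to 5.85) and 2.35 (1.32 to 4.38), and 12 of 29 measured interferon-response genes in control were over 2-fold higher in S100-low cells and none lower. In LOY 15 of 28 were higher and none lower. These counts too rest on few cells: those with 10 or more interferon-response UMIs numbered 8 of 81 S100-low and 3 of 81 S100-high cells in control, and 5 and 2 of 30 in LOY. Of the Rsad2 UMIs of low-marker mature cells 33.2% and 59.1% lay in 3 cells. Il1b differed little, with ratios of 1.08 (1.03 to 1.13) and 1.06 (0.923 to 1.21), as did Cxcr2, at 0.872 (0.721 to 1.05) and 1.02 (0.589 to 1.78).

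The 10 genes named each way were chosen in the control library. In the LOY library 10 of the 10 genes higher in S100-low cells lay on the same side and 10 were over 2-fold apart. Of the 10 genes higher in S100-high cells 10 lay on the same side and 8 were over 2-fold apart. These counts are read against 27.8% and 18.2% of all measured LOY genes, a set that Cxcl3, with 1 and 0 LOY UMIs, did not reach. Several other genes had few LOY UMIs, such as Nsa2 (6 and 1) and Ccnd2 (5 and 2). The share of all genes that lay on the same side in both libraries is not given here.

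**Figure D5:**
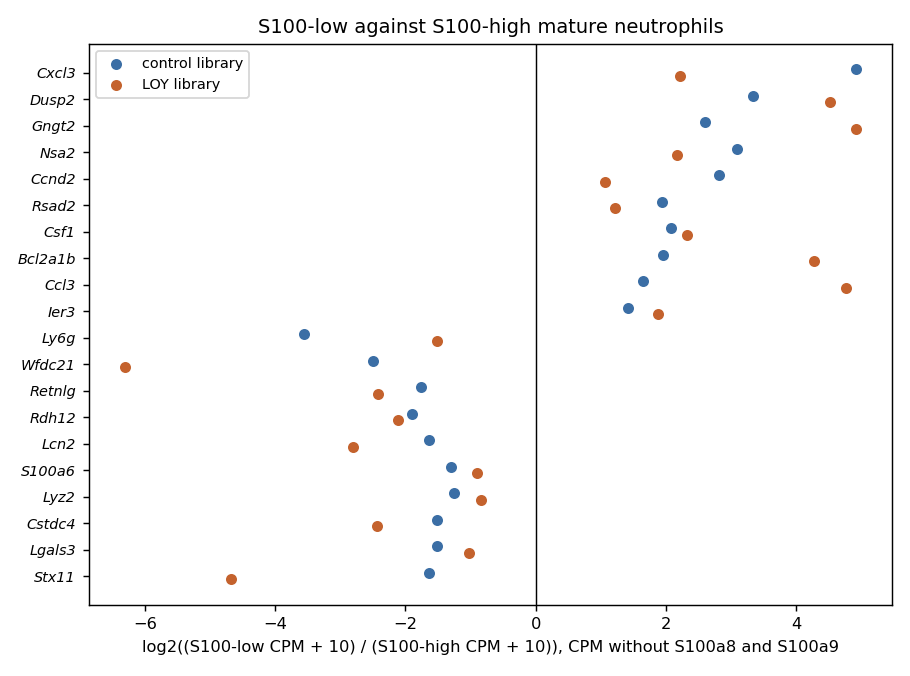
log2((S100-low CPM + 10)/(S100-high CPM + 10)) of low-marker mature neutrophils, for 10 genes higher in S100-low and 10 higher in S100-high cells of the control library (blue), with the LOY library beside them (orange). All 20 pairs of points lie on the same side of 0.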

How the data were processed

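Leukocytes of the left ventricle were profiled as 2 droplet libraries (10x Genomics 3' kit), 1 per group. The submitters' processing notes name Cell Ranger 5.0.0 and the build mm10. What the authors deposited is a matrix of unscaled UMI counts for each library, in which no barcode holds under 500 UMIs. Gene positions are from GENCODE M21.

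UMIs were summed over cells and scaled to CPM (Python 3.11.15, numpy 2.4.6, scipy 1.17.1, pandas 2.3.3, matplotlib 3.10.9). Log2 ratios used CPM + 10, which understates differences of low genes. Ratios with an interval are plain CPM ratios with exact conditional intervals. Thinning drew 500 UMIs per cell without replacement (seed 7). The code was tested on simulated data. Comparison cells were C1q-positive (at least 1% of UMIs) or B cells (at least 3 marker UMIs). No doublets were removed.

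Named genes were the rule genes, Camp, Ngp, Ltf and Y-linked genes. Named too were, for LOY against control and for immature against mature cells, the 12 genes each way whose interval bound nearest 1 was farthest from 1. Such genes reached 100 CPM in the higher group and 20 UMIs over both; gene models without a name and genes of mitochondria, ribosomal proteins, haemoglobins, immunoglobulins or T cell receptors were passed over. The 2 highest and 2 lowest members of each gene list, the 15 most abundant genes and the highest marker of each cell type complete the rule. Other genes (Ptgs2, Cd14, Cxcr4, Mpo, Top2a and members that a list count turns on) and those of the low-marker set and the S100-low and S100-high cells were chosen after their values were seen. The cells, gene lists and rules were chosen with earlier results of these data known.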

Additional observations from a re-analysis of the deposited data

Results flagged for a closer look

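Among the barcodes left out by the cell filters, 4 in the control library met the neutrophil transcript rule. A further 3 did so in the LOY library. All 7 had over 10% mitochondrial UMIs. The control barcodes held 1768 to 4873 UMIs and the LOY barcodes 908 to 1448 UMIs. They belong to no comparison above.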

How the results depend on the processing

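No paired analysis was possible because each group is 1 library, and for the same reason no replicate could be left out. With a minimum of 1000 UMIs the LOY neutrophil share was 0.737% and its immature share 0%, and 300 genes were over 2-fold higher and 226 lower in LOY. The LOY neutrophil share was 1.64% with C1q under 0.1% of UMIs and 1.72% without cells with macrophage or monocyte markers, and the LOY immature share 0% with 2 or more UMIs of the other rule genes. The control neutrophil share was 4.77% with at most 5% mitochondrial UMIs. Without cells with markers of other lineages it was 3.43%, the control immature share 0.417%, and 754 genes were higher in immature cells, which were then 1. With a pseudocount of 50 CPM 57 genes were higher and 52 lower in LOY, and at 1.5-fold 290 and 306. With no filter on low values 582 and 725 were, and 1713 and 2182 in immature cells. At 200 CPM or more 51 and 49 were, and 164 and 340 in immature cells. With cells thinned to 500 UMIs 181 were lower in LOY, and 722 higher and 955 lower in immature cells. With CPM computed without S100a8, S100a9, mitochondrial and ribosomal-protein genes 595 were higher in immature cells. The median of secondary granule genes, negative over all neutrophils, was 0.55 in mature cells, 0.11 in low-marker mature cells (0.36 by their first definition), 0.23 without cells of other lineages and 0.0808 after thinning, where the proliferation median was 0.0577. The log2 ratio of Tmem176b turned to -1.17 without macrophage- or monocyte-marker cells, -1.13 in low-marker mature cells and -1.25 by the first definition. That of Ms4a4c, a marker by which these sets were chosen, turned to -0.24 and -0.26 in the former 2 sets. That of Camp turned to 0.18 without cells of other lineages. The cause of these shifts was not tested. Among alternatives, 583 log2 ratios of named genes stayed within their counting interval and 145 moved outside it.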
